A study of Mus musculus with 4 samples.

Results

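The genes described here are 47 genes of mitosis and the spindle, and they were compared between *Ddb1*-deficient and control blood stem and progenitor cells of the mouse fetal liver. They were taken from a list of gene symbols chosen by their known part in mitosis, and all 47 were measured among the 20656 genes tested. The list was drawn up with earlier results of these data known, so the counts below are not independent of these data. LSK cells (Lin-ckit+Sca1+), the fraction that holds hematopoietic stem cells and multipotent progenitors, were sorted from fetal livers at E16.5. The *Ddb1*-deficient embryos were DDB1 flox/flox with VavCre+, so that Cre under the *Vav1* promoter deletes the gene throughout the blood compartment. The control embryos were DDB1 flox/flox with VavCre-, and both groups were on the C57BL/6x129 background. The controls shared the floxed alleles but, by their labels, carried no Cre, so an effect of Cre itself cannot be told apart from the loss of *Ddb1*. A heading in the study's own heat map of these arrays instead marks the controls as Cre+, a conflict that was not resolved here. Each group held 2 samples, each on its own Affymetrix expression array. Whether a sample came from 1 embryo or from a pool is not given in the sources used here, and the p-values measure only the spread between these samples.

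DDB1 is the adaptor that joins the CUL4 ubiquitin ligases to their substrate receptors, and through these ligases it limits proteins of DNA replication and the cell cycle. A dividing cell enters mitosis when CDK1 bound to cyclin A or cyclin B is switched on by CDC25 phosphatases. Chromosomes then condense, kinetochores attach to spindle microtubules, and the spindle checkpoint holds back the anaphase-promoting complex until attachment is complete. Separase then cuts cohesin, and the central spindle and the contractile ring part the daughter cells. Transcripts of most of these genes are low in quiescent cells and peak in G2 phase and mitosis, and adult hematopoietic stem cells are mostly quiescent whereas those of the fetal liver divide. In a bulk sample, fewer cells in mitosis and less RNA per cell cannot be told apart.

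Most of the mitosis and spindle genes had lower expression on the *Ddb1*-deficient arrays. Values are log2 of the authors' RMA intensity, an estimate of hybridization signal in which a step of 1 is a factor of 2. The log2 difference (*Ddb1*-deficient minus control) was below 0 for 43 of the 47 genes (91.5%), against 45.6% of all genes tested and 53.6% of the 11770 genes whose mean lay above that of the median probe set (2.083). Their median difference was -0.76, with quartiles of -1.18 and -0.44, against 0.03 over all genes and -0.05 over the brighter ones. Both *Ddb1*-deficient arrays lay below both control arrays for 30 of the 47 genes (63.8%, against 18.5% of all genes and 25.5% of the brighter ones). No member showed the opposite separation (0 of 47, read from the brightest probe set of each gene). It was seen in 22.5% of all genes and 19.8% of the brighter ones. Groups whose arrays do not overlap are called separate in what follows. A difference of -1 or less was seen in 18 of 47 (38.3%, against 5.74% of all genes and 9.92% of the brighter ones). The summed intensity of the 47 genes on the linear scale was 6003 and 6063 on the *Ddb1*-deficient arrays, against 8607 and 9319 on the control arrays.

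With 2 arrays a group, no gene passed an adjusted p of 0.05 (limma, Benjamini-Hochberg over 20656 genes), so that 0 members were called lower and 0 higher, as were 0% of all genes in each direction. The smallest adjusted p over all genes was 0.133, and the smallest among the members was 0.146, for *Nusap1*. At an unadjusted p under 0.05, 18 members were lower and 0 higher. Over all genes, 1245 were lower by that rule (6.03%) and 1012 higher (4.9%), and among the brighter genes 10.1% were lower and 7.58% higher. An exact permutation test of a single gene cannot go below p = 0.333 in this design. Differences below are therefore given as measured, each with the standard error (SE) from limma, and none is a call.

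**Figure D1:**
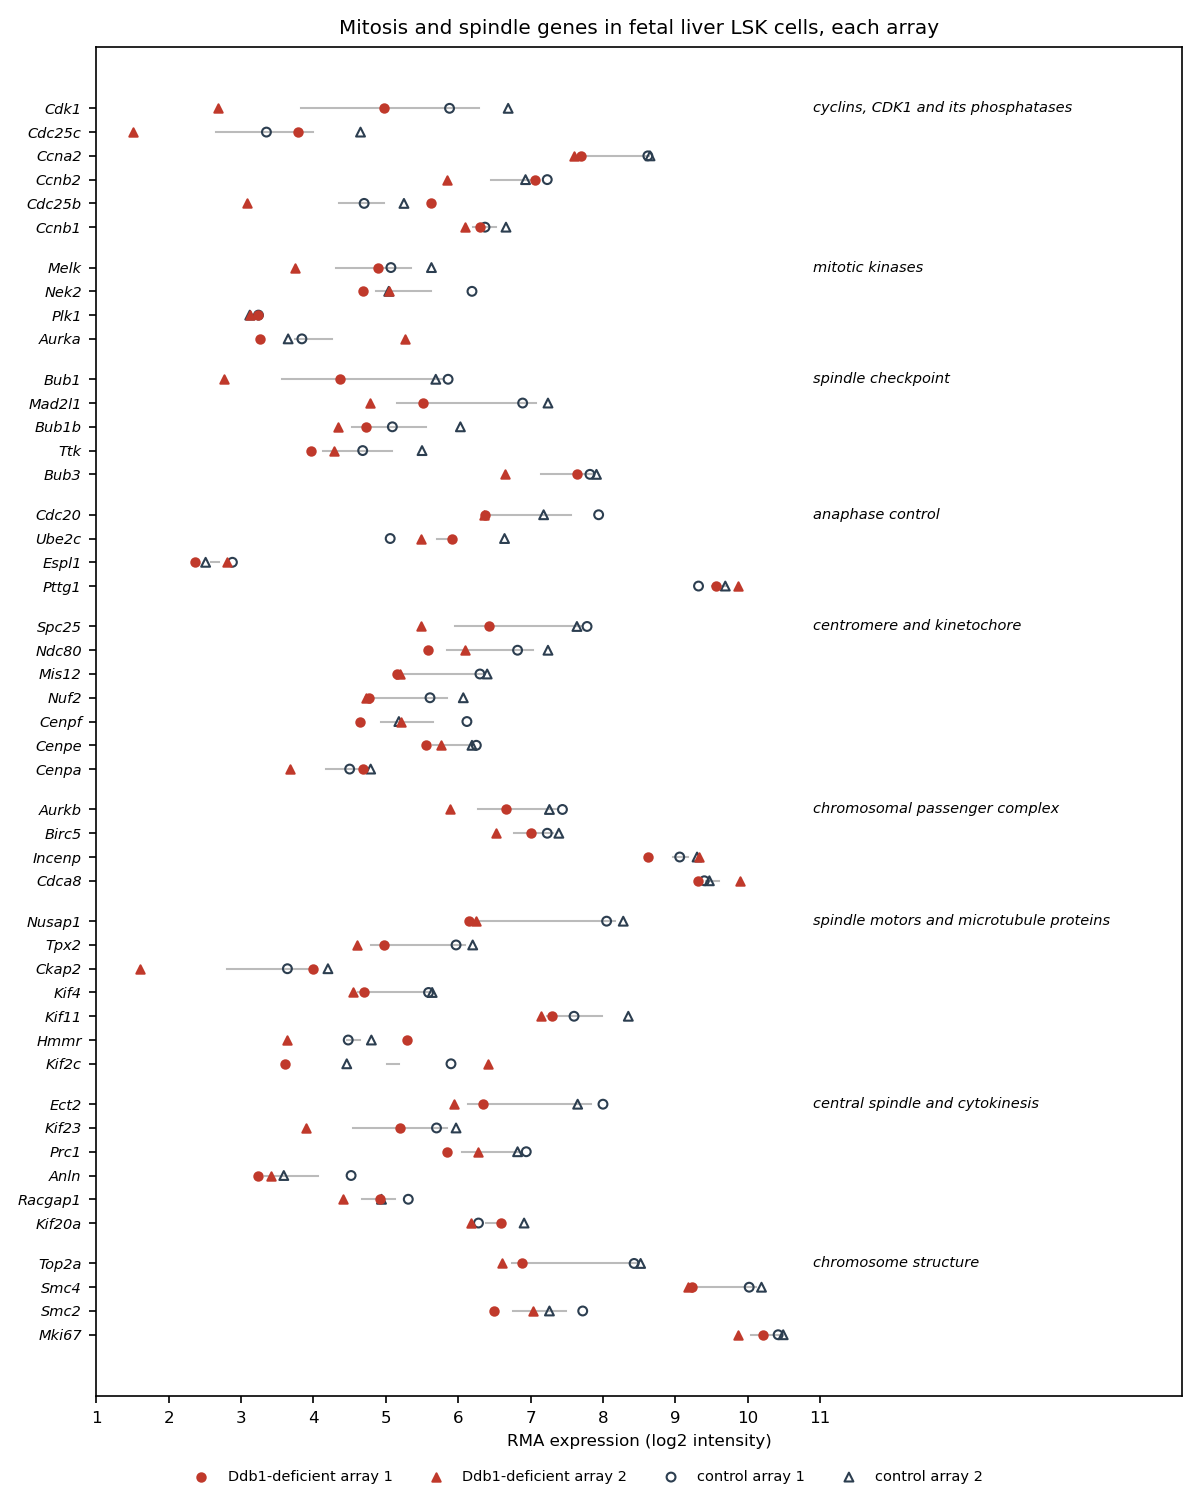
Log2 RMA expression of each of the 47 mitosis and spindle genes on each array, grouped by role and ordered by difference, with *Ddb1*-deficient arrays filled and control arrays open. The grey line joins the group means, and for 30 of 47 genes both filled symbols lie left of both open symbols.

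The targeted gene and the cell type markers describe the samples. *Ddb1* measured 4.58 and 4.33 in the *Ddb1*-deficient samples, against 6.06 and 6.26 in the control samples (log2 difference -1.70 ± 0.20 SE, adjusted p = 0.162). *Xist* was at 2.15 and 9.96 on *Ddb1*-deficient arrays 1 and 2, against 1.93 and 10.09 on control arrays 1 and 2, and the Y-linked *Kdm5d* ran the other way, so array 1 was of male and array 2 of female cells in each group. Of the genes whose proteins defined the sort, *Kit* was at 6.41 and 5.63 in the *Ddb1*-deficient samples, against 6.18 and 6.40 in the control samples (-0.27), and *Ly6a*, which encodes Sca1, at 7.01 and 6.84 in the *Ddb1*-deficient samples, against 7.30 and 6.32 in the control samples (0.12). Both were above the median probe set on every array and overlapped between the groups. The summed intensity of 16 macrophage markers was 19985 and 24123 on the *Ddb1*-deficient arrays, against 3112 and 4783 on the control arrays, with all 16 separate and higher and none below the median probe set. Of 16 hematopoietic stem cell markers 13 were separate and higher (sums of 1710 and 1656 on *Ddb1*-deficient arrays, against 582.9 and 535.0 on control arrays). All 10 markers of multipotent and lymphoid-primed progenitors were separate and lower (873.0 and 443.5 in *Ddb1*-deficient cells, against 3685 and 3962 in control cells). For comparison, 22.5% of all genes were separate and higher and 18.5% separate and lower. Myeloid progenitor markers were lower in 12 of 13 (sums of 1212 and 797.7 in *Ddb1*-deficient cells, against 12151 and 15973 in control cells), and erythroid markers higher in 15 of 17 (3341 and 3830 in *Ddb1*-deficient cells, against 739.0 and 1695 in control cells). Medians were 0.62 for 10 megakaryocyte, 1.05 for 12 endothelial and 0.33 for 14 hepatoblast markers. The 9 B lineage markers differed between the *Ddb1*-deficient arrays themselves, with sums of 4583 and 272.2, against 5003 and 7427 on the control arrays. The part of these markers in the mitosis values was not tested. Of the control RNAs added to every array, the 10 bioB and bioC probe sets were all higher on the *Ddb1*-deficient arrays by a median of 0.58. Those of cre, brighter on every array, differed by -0.01. The part of the bioB and bioC shift in the results was not tested.

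The difference was present within each sex, where 1 array a group allows no test. Between the arrays of male cells, 38 of 47 genes were lower in the *Ddb1*-deficient sample (80.9%, against 47.3% of all genes). Their median was -0.70, against 0.02 over all genes. Between the arrays of female cells, 38 of 47 were lower (80.9%, against 46.2% of all genes) with a median of -1.11, against 0.04 over all genes. The *Ddb1*-deficient arrays differed from each other more than the controls did. A gap of over 1 was found for 13 members between the *Ddb1*-deficient arrays (11 higher on array 1 and 2 higher on array 2), against 4 members between the control arrays. These were 27.7% of the members between the *Ddb1*-deficient arrays (against 22.3% of the brighter genes) and 8.51% between the control arrays (against 11.7% of the brighter genes). The median over the members was -0.97 without *Ddb1*-deficient array 1 and -0.69 without array 2.

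Promoters of genes that peak in G2 phase and mitosis are known for a pair of elements, the CCAAT box, bound by NF-Y, and the cell cycle homology region (CHR), bound by the DREAM and MuvB complexes. RefSeq promoter windows on GRCm38.p6, from 250 bases before to 50 bases after the start of transcription, were matched for 40 of the 47 members (43 windows). They were searched on both strands for CHR as TTTGAA or TTCGAA and for the CCAAT box as CCAAT. CHR letters were found in 33 of the 43 windows (76.7%), against 19.2% of all 32851 windows of this length. CCAAT was found in 34 (79.1%, against 37.4%), and 2 or more CCAAT matches in 22 (51.2%, against 11.7%). Both motifs stood in 30 windows (69.8%, against 7.52%), and a CHR and a CCAAT match overlapped in 1 member window. Members with and without a match both had negative medians. The median log2 difference was -0.73 over 30 members with a CHR match and -0.89 over 10 without, and it was -0.73 over 31 members with CCAAT and -1.04 over 9 without. A match is a run of letters and not a shown binding site. The windows below are written 5′ to 3′ along the gene with CHR and CCAAT letters of either strand in capitals. Picked from 27 members that hold both motifs, they are those of *Cdk1*, *Bub1*, *Top2a* and *Cdc20*, which were lower, and of *Plk1*, which was level. They lie at chr10:69352863-69353162 (*Cdk1*, minus strand), chr2:127831810-127832109 (*Bub1*, minus), chr11:99024140-99024439 (*Top2a*, minus), chr4:118437294-118437593 (*Cdc20*, minus) and chr7:122159185-122159484 (*Plk1*, plus).
Cdk1: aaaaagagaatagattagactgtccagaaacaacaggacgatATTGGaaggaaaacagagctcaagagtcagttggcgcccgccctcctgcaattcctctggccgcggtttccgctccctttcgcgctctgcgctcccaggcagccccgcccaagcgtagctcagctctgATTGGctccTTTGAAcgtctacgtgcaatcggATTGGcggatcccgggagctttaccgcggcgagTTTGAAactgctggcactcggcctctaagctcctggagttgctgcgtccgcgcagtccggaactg
Bub1: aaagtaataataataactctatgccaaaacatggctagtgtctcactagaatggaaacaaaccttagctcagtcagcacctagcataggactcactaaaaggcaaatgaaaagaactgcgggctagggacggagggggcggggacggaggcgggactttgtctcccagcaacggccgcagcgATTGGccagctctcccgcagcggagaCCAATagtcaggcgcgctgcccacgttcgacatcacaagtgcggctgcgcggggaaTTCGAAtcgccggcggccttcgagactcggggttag
Top2a: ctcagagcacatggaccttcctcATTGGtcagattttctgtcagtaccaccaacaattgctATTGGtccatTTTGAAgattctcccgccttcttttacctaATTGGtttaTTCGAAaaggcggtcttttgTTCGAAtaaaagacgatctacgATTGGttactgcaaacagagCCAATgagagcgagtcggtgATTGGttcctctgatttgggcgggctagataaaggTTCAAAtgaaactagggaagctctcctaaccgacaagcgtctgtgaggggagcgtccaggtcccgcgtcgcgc
Cdc20: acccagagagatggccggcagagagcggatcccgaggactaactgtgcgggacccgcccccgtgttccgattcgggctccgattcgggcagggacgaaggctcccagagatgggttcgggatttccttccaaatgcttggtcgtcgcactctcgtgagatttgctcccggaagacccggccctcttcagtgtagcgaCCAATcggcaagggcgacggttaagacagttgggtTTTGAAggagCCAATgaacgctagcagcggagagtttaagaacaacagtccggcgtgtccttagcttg
Plk1: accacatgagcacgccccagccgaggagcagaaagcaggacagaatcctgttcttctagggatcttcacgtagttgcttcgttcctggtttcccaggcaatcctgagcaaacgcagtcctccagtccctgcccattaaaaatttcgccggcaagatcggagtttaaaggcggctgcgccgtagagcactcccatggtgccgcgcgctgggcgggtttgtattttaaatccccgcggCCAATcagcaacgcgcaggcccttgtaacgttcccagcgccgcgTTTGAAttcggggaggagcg
*Cdk1* held 2 CHR and 3 CCAAT matches, *Top2a* 4 and 6, *Bub1* and *Cdc20* 1 and 2 each, and *Plk1* 1 of each.

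**Figure D2:**
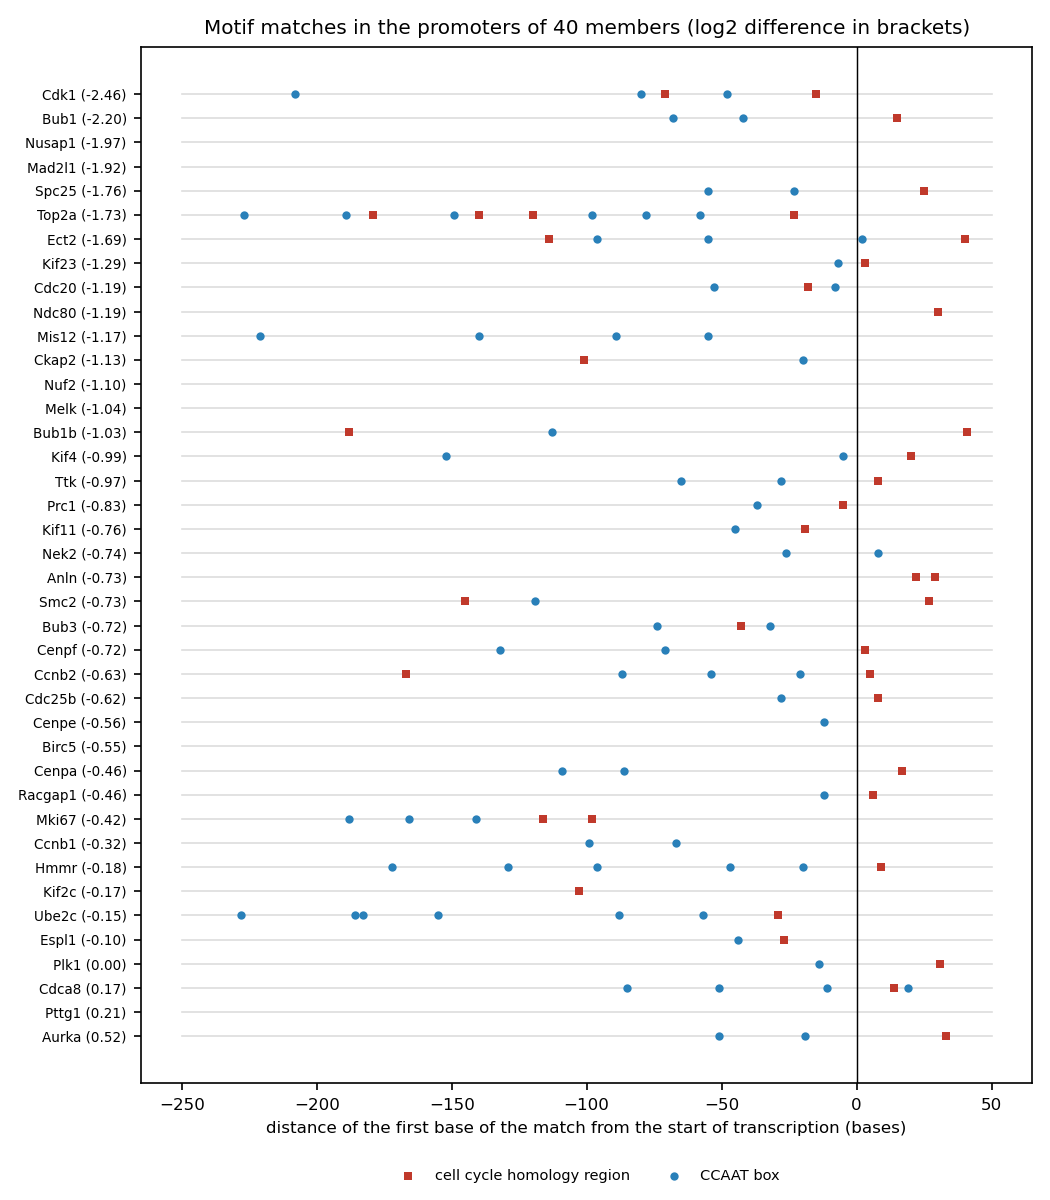
Positions of CHR (squares) and CCAAT (circles) matches on either strand in the RefSeq promoter windows of 40 members, in bases from the start of transcription (the first listed window of each), with members ordered by log2 difference (*Ddb1*-deficient minus control, in brackets). Both motifs stand in members with large differences such as *Cdk1* (-2.46) and in *Plk1* (0.00), and 10 members have no CHR match in any window.

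Among the cyclins, CDK1 and its phosphatases, all 6 members had negative differences, against 45.6% of all genes and 53.6% of the brighter ones. Their median was -0.81. *Cdk1*, the kinase that drives entry into mitosis, was at 4.98 and 2.68 in *Ddb1*-deficient cells, against 5.88 and 6.69 in control cells. The groups did not overlap, yet *Ddb1*-deficient array 2 was far below array 1, and the difference was -2.46 ± 0.88 SE (5.5-fold lower, adjusted p = 0.457). Without *Ddb1*-deficient array 2 it was -1.31. *Ccna2*, cyclin A2 of S and G2 phases, was at 7.69 and 7.60 in *Ddb1*-deficient cells, against 8.62 and 8.65 in control cells. Here the arrays of each group lay close together and apart from the other group, and the difference of -0.99 ± 0.17 SE (adjusted p = 0.221) was a factor of 1.98. *Ccnb1*, cyclin B1, was at 6.30 and 6.10 in *Ddb1*-deficient cells, against 6.37 and 6.66 in control cells, a separation of the groups narrower than the gaps within them (-0.32 ± 0.21 SE, adjusted p = 0.682). It was -0.17 without control array 2 and -1.27 as the mean of all its probe sets. *Cdc25c*, a phosphatase that activates CDK1, was at 3.79 and 1.51 in *Ddb1*-deficient cells, against 3.35 and 4.65 in control cells, and its groups overlapped (-1.35 ± 0.95 SE, adjusted p = 0.702). All 6 genes of this group were higher on *Ddb1*-deficient array 1 than on array 2, by a median of 1.75, and the difference of *Cdc25c* rests on array 2, since it was -0.21 without it. It was -2.49 without array 1, -0.70 without control array 2 and -0.52 without probe sets that can match several transcripts. The other members, *Ccnb2* (cyclin B2) and *Cdc25b*, a further phosphatase of CDK1, overlapped between the groups, at -0.63 and -0.62.

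The mitotic kinases had a median of -0.37, with 1 of 4 separate between the groups. That count was close to the share of brighter genes separate and lower (25.5%, and 18.5% of all genes). *Plk1*, the polo-like kinase of centrosomes, kinetochores and cytokinesis, was at 3.24 and 3.12 in *Ddb1*-deficient cells, against 3.24 and 3.12 in control cells. The group means were equal to 2 decimals, with a 95% interval of -0.50 to 0.50. Its 1 probe set had a mean of 3.18, against 2.083 for the median probe set. *Aurka*, the kinase of the spindle poles, was at 3.26 and 5.26 in *Ddb1*-deficient cells, against 3.84 and 3.65 in control cells. It had the most positive difference of the members, 0.52 ± 0.74 SE (adjusted p = 0.864), but its *Ddb1*-deficient arrays stood on either side of the controls, and without array 2 the difference was -0.49. It was 1.52 without array 1 and 0.25 as the mean of all its probe sets. *Melk*, a kinase whose expression follows proliferation, was at 4.89 and 3.74 in *Ddb1*-deficient cells, against 5.07 and 5.63 in control cells, which made it the only separate member of this group (-1.04 ± 0.49 SE, adjusted p = 0.570). Without *Ddb1*-deficient array 2 the difference was -0.46, and without array 1 it was -1.61. *Nek2*, a kinase that parts the centrosomes, was at 4.69 and 5.05 in *Ddb1*-deficient cells, against 6.19 and 5.04 in control cells, with overlap (-0.74). Control array 1 set that difference, which was -0.17 without it, -1.31 without control array 2 and -0.32 as the mean of all its probe sets.

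All 5 genes of the spindle checkpoint were separate and lower, against 18.5% of all genes and 25.5% of the brighter ones. Their median was -1.03. *Bub1*, a checkpoint kinase of the kinetochore, was at 4.37 and 2.77 in *Ddb1*-deficient cells, against 5.86 and 5.69 in control cells. Both *Ddb1*-deficient arrays were below the controls by more than the gap within the controls, with a difference of -2.20 ± 0.60 SE (4.61-fold lower, adjusted p = 0.349), which was -1.41 without *Ddb1*-deficient array 2 and -0.67 as the mean of its 2 probe sets. *Mad2l1*, which encodes MAD2, the inhibitor of CDC20, was at 5.52 and 4.78 in *Ddb1*-deficient cells, against 6.89 and 7.24 in control cells. The gap between the groups exceeded that within either (-1.92 ± 0.33 SE, 3.78-fold lower, adjusted p = 0.221). *Bub1b*, which encodes BUBR1 of the same inhibitory complex, was at 4.72 and 4.34 in *Ddb1*-deficient cells, against 5.09 and 6.03 in control cells (-1.03 ± 0.40 SE, adjusted p = 0.489, and -0.56 without control array 2). *Bub3*, its partner, was at 7.64 and 6.64 in *Ddb1*-deficient cells, against 7.82 and 7.91 in control cells, where only array 2 of the *Ddb1*-deficient group was clearly below the controls (-0.72 ± 0.39 SE, adjusted p = 0.623, -0.22 without that array, -1.22 without array 1, and 0.02 as the mean of all its probe sets). *Ttk*, the kinase MPS1 that starts the checkpoint signal, was at 3.97 and 4.28 in *Ddb1*-deficient cells, against 4.68 and 5.50 in control cells (-0.97 ± 0.35 SE, adjusted p = 0.462).

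The genes of anaphase control had the median nearest to 0 of the 9 roles, at -0.13, with 1 of 4 separate. Here too the count was close to the share of brighter genes separate and lower (25.5%, and 18.5% of all genes). *Cdc20*, the activator of the anaphase-promoting complex and target of the checkpoint, was at 6.37 and 6.36 in *Ddb1*-deficient cells, against 7.94 and 7.18 in control cells. Its *Ddb1*-deficient arrays were nearly equal and below both controls (-1.19 ± 0.32 SE, 2.29-fold lower, adjusted p = 0.345). *Pttg1*, securin, the inhibitor of separase, was at 9.56 and 9.86 in *Ddb1*-deficient cells, against 9.32 and 9.69 in control cells, and the groups overlapped (0.21 ± 0.24 SE, adjusted p = 0.830). Left-out arrays gave 0.02 to 0.39, and the mean of all its probe sets 1.34 (adjusted p = 0.15 by limma). Without probe sets that can match several transcripts it was 2.42 (adjusted p = 0.196 by limma). *Espl1*, separase itself, overlapped (-0.10), as did *Ube2c*, the ubiquitin-conjugating enzyme of the anaphase-promoting complex (-0.15), whose control arrays were further apart than the groups.

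Of 7 centromere and kinetochore genes, all had negative differences, with a median of -1.10, against 45.6% of all genes and 53.6% of the brighter ones. Among the 7, 5 were separate, against 18.5% of all genes and 25.5% of the brighter ones separate and lower. The same number had an unadjusted p under 0.05, against 6.03% and 10.1% lower by that rule. The NDC80 complex, which grips the microtubule end, has 3 subunits among the members. *Spc25* was at 6.42 and 5.49 in *Ddb1*-deficient cells, against 7.78 and 7.64 in control cells (-1.76 ± 0.37 SE, 3.38-fold lower, adjusted p = 0.277, and -0.99 as the mean of its 2 probe sets). *Ndc80* was at 5.58 and 6.10 in *Ddb1*-deficient cells, against 6.82 and 7.24 in control cells (-1.19 ± 0.29 SE, adjusted p = 0.315). *Nuf2* was at 4.77 and 4.72 in *Ddb1*-deficient cells, against 5.61 and 6.07 in control cells (-1.10 ± 0.24 SE, adjusted p = 0.282). All 3 subunits were thus lower on both *Ddb1*-deficient arrays than on either control. *Mis12*, of the complex that anchors NDC80 to the centromere, was at 5.16 and 5.20 in *Ddb1*-deficient cells, against 6.30 and 6.40 in control cells, with gaps within groups far smaller than that between them (-1.17 ± 0.17 SE, 2.25-fold lower, adjusted p = 0.197). *Cenpe*, the kinetochore kinesin, was at 5.55 and 5.76 in *Ddb1*-deficient cells, against 6.25 and 6.19 in control cells (-0.56 ± 0.19 SE, adjusted p = 0.432). *Cenpf* overlapped (-0.72), as did *Cenpa*, the histone H3 variant that marks centromeres (-0.46).

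The chromosomal passenger complex was divided, with 2 of 4 members separate and a median of -0.38. The shares separate and lower were 18.5% of all genes and 25.5% of the brighter ones. *Aurkb*, its kinase, was at 6.66 and 5.89 in *Ddb1*-deficient cells, against 7.44 and 7.26 in control cells, without overlap (-1.07 ± 0.33 SE, 2.1-fold lower, adjusted p = 0.405, and -0.68 without *Ddb1*-deficient array 2). *Birc5*, survivin, was at 7.01 and 6.52 in *Ddb1*-deficient cells, against 7.23 and 7.39 in control cells, a narrow separation (-0.55 ± 0.25 SE, adjusted p = 0.557, and -0.30 without the same array). *Cdca8*, borealin, was at 9.31 and 9.90 in *Ddb1*-deficient cells, against 9.40 and 9.47 in control cells, with overlap (0.17 ± 0.27 SE, adjusted p = 0.881). Its sign was set by *Ddb1*-deficient array 2, since without it the difference was -0.13, and it was -0.20 as the mean of all probe sets of the gene and -0.45 without probe sets that can match several transcripts. The scaffold *Incenp* overlapped too (-0.21), and so did its other, less bright probe sets, at 0.47, 0.24 and -0.03.

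Among the spindle motors and microtubule proteins, all 7 differences were negative, 4 members were separate, and the median was -0.99. For all genes the shares were 45.6% below 0 and 18.5% separate and lower, and for the brighter ones 53.6% and 25.5%. *Nusap1*, which bundles spindle microtubules around chromosomes, was at 6.15 and 6.24 in *Ddb1*-deficient cells, against 8.05 and 8.28 in control cells. The arrays of each group lay close together, and its adjusted p was the smallest of the members (-1.97 ± 0.19 SE, 3.92-fold lower, adjusted p = 0.146, 95% interval -2.50 to -1.44). As the mean of its 2 probe sets the difference was -1.15, with an adjusted p of 0.299 by limma. *Tpx2*, the spindle assembly factor that activates Aurora A, was at 4.98 and 4.60 in *Ddb1*-deficient cells, against 5.97 and 6.20 in control cells (-1.29 ± 0.23 SE, 2.45-fold lower, adjusted p = 0.226, and -0.51 as the mean of its 4 probe sets). *Kif4*, a chromokinesin, was at 4.70 and 4.55 in *Ddb1*-deficient cells, against 5.59 and 5.64 in control cells (-0.99 ± 0.18 SE, adjusted p = 0.226). For these 3 genes the groups stood apart by more than the gap within either. *Kif11*, the motor that pushes the spindle poles apart, was separate at -0.76, with a wider gap between its controls. *Ckap2*, a spindle microtubule protein, was at 3.99 and 1.60 in *Ddb1*-deficient cells, against 3.64 and 4.20 in control cells, and *Kif2c*, a microtubule depolymerase, at 3.61 and 6.41 in *Ddb1*-deficient cells, against 5.90 and 4.46 in control cells. These and *Hmmr* (-0.18) overlapped, with larger gaps between the *Ddb1*-deficient arrays than between the group means.

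Of 6 genes of the central spindle and cytokinesis, 5 were separate, with a median of -0.78. The shares separate and lower were 18.5% of all genes and 25.5% of the brighter ones. *Ect2*, which activates RhoA to build the contractile ring, was at 6.34 and 5.94 in *Ddb1*-deficient cells, against 8.0 and 7.65 in control cells. Each *Ddb1*-deficient value was below each control by more than 1 (-1.69 ± 0.25 SE, 3.22-fold lower, adjusted p = 0.198). *Prc1*, which cross-links the microtubules of the central spindle, was at 5.84 and 6.27 in *Ddb1*-deficient cells, against 6.94 and 6.82 in control cells (-0.83 ± 0.23 SE, adjusted p = 0.365). *Kif23*, the motor of the centralspindlin complex, was at 5.19 and 3.90 in *Ddb1*-deficient cells, against 5.70 and 5.97 in control cells, with array 2 again the lower of the *Ddb1*-deficient arrays (-1.29 ± 0.50 SE, adjusted p = 0.489). The difference was -0.65 without that array and -0.81 as the mean of all its probe sets. *Anln*, anillin of the contractile ring, and *Racgap1*, the other part of centralspindlin, were separate at -0.73 and -0.46, while *Kif20a* overlapped (-0.22).

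All 4 genes of chromosome structure were separate and lower, against 18.5% of all genes and 25.5% of the brighter ones. Their median was -0.81. *Top2a*, the topoisomerase that untangles sister chromatids, was at 6.88 and 6.60 in *Ddb1*-deficient cells, against 8.43 and 8.52 in control cells. The groups lay further apart than the arrays of either group (-1.73 ± 0.20 SE, 3.33-fold lower, adjusted p = 0.157), while the mean of its 3 probe sets gave -0.75. *Smc4*, the ATPase of condensin, was at 9.23 and 9.18 in *Ddb1*-deficient cells, against 10.02 and 10.19 in control cells (-0.90 ± 0.18 SE, adjusted p = 0.255), and its partner *Smc2* was separate at -0.73. *Mki67*, the proliferation marker that coats mitotic chromosomes, was at 10.21 and 9.87 in *Ddb1*-deficient cells, against 10.42 and 10.49 in control cells. Its groups were separate but close (-0.42 ± 0.21 SE, adjusted p = 0.591), a smaller difference than the median of the members, and -0.25 without *Ddb1*-deficient array 2.

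**Figure D3:**
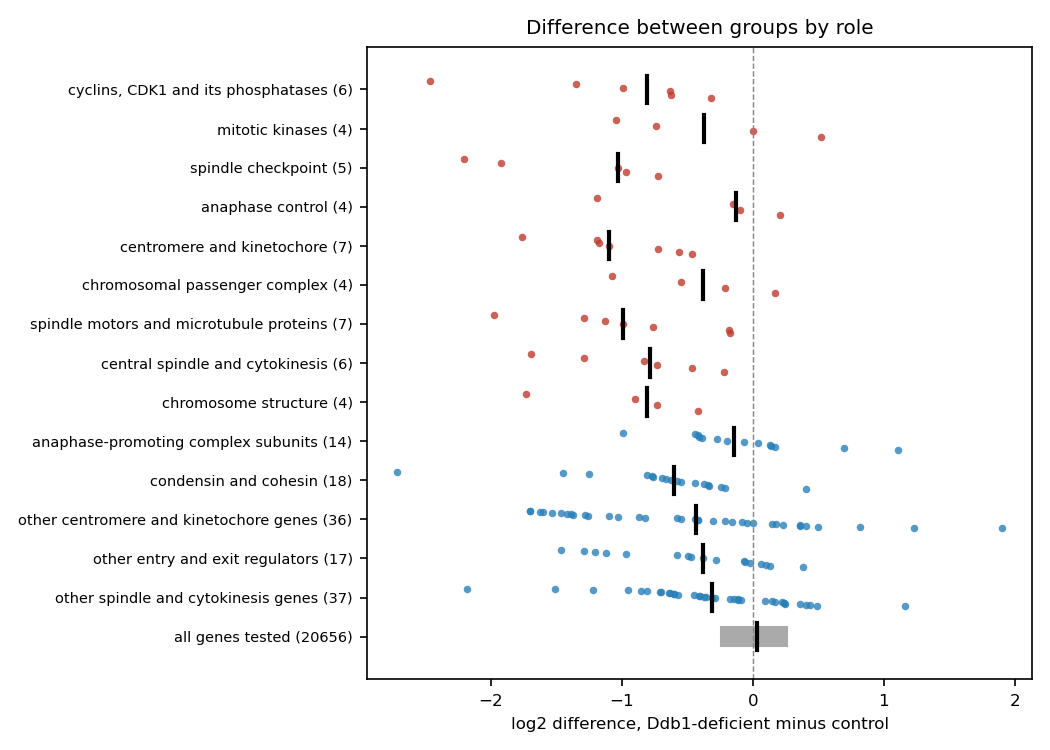
Log2 difference (*Ddb1*-deficient minus control) of each mitosis and spindle gene by role (red) and of other mitosis genes by list (blue), with black bars at the medians and numbers of genes in brackets. The bottom row gives the median (0.03) and the quartiles of all 20656 genes, and the medians of all 9 roles and all 5 lists lie to the left of it.

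**Figure D4:**
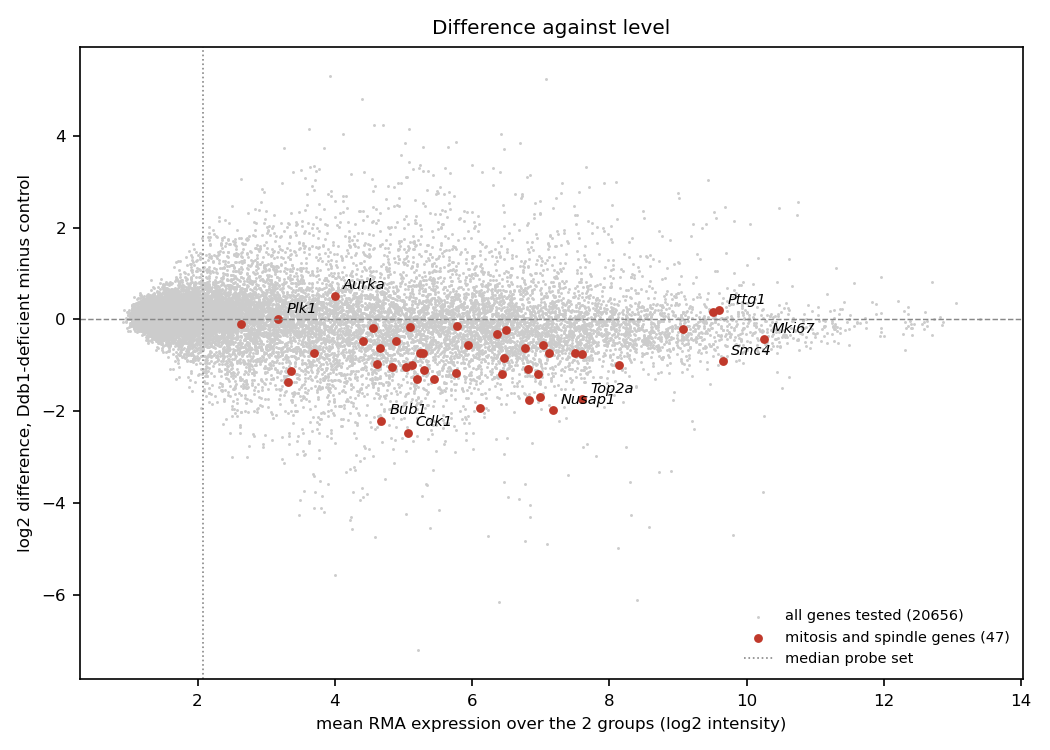
Log2 difference (*Ddb1*-deficient minus control) against the mean log2 RMA expression of both groups for all genes tested (grey) and the 47 mitosis and spindle genes (red), with the mean of the median probe set as a dotted line. All members lie above that level (2.083), and 43 of them lie below 0.

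Other probe sets of the same genes gave a check within the arrays, although probe sets of a gene share the sample and are no replicates. For 30 members with several probe sets, 57 others were read besides the brightest. Of these, 43 had a mean above the median probe set, and 37 of the 43 had negative differences, with a median of -0.57. Both *Ddb1*-deficient arrays were below both controls for 25 of the 43 and above them for 2. Over all genes brighter than the median probe set, the shares were 25.5% below and 19.8% above. The 14 dimmer probe sets had a median of 0.04. Probe sets other than the brightest gave both larger and smaller differences, and the genes named here were chosen after their values were seen. A probe set of *Ccnb1* was at 5.13 and 3.27 in *Ddb1*-deficient cells, against 6.97 and 6.96 in control cells (-2.76, where the brightest gave -0.32), and another probe set gave -0.73. *Cenpa* had -3.24 and -0.60 beside -0.46, *Kif11* had -2.51 and -1.60 beside -0.76, and *Cenpf* had -2.31 and -0.35 beside -0.72. *Pttg1* went the other way, and its 2 other probe sets were separate and higher. They were at 7.46 and 7.0 in *Ddb1*-deficient cells, against 4.42 and 5.20 in control cells (2.42), and at 4.14 and 5.06 in *Ddb1*-deficient cells, against 3.46 and 2.97 in control cells (1.38). Smaller differences were found for some of the leading genes. The other probe set of *Nusap1* was at 2.59 and 3.40 in *Ddb1*-deficient cells, against 2.87 and 3.78 in control cells (-0.33, with overlap), and that of *Bub1* gave 0.87 with overlap. Beside the brightest, *Top2a* had -0.57 (separate) and 0.04, *Tpx2* -0.87 (separate), 0.09 and 0.04, and *Spc25* -0.22. The values of 0.04 (*Top2a*), 0.09 and 0.04 (*Tpx2*) came from probe sets with means of 1.80, 1.40 and 1.25, below the median probe set (2.083). The other probe sets of *Spc25* (mean 2.11) and *Bub1* (2.27) lay just above it. The 3 probe sets of *Smc4* were all separate and lower, at -0.90, -0.67 and -1.34.

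**Figure D5:**
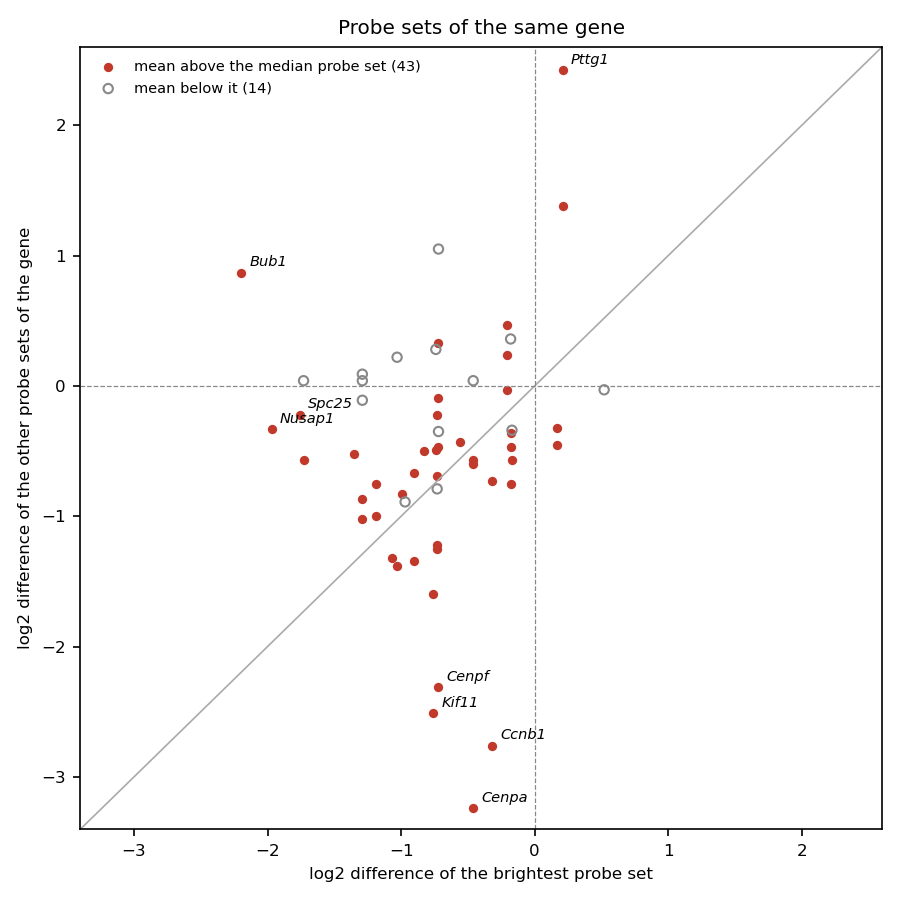
Log2 difference (*Ddb1*-deficient minus control) of the other probe sets of a member against that of its brightest probe set, filled where the mean lies above the median probe set (43) and open where it lies below (14). Points on the diagonal have equal differences, 37 of the 43 filled points lie below 0, and the 2 filled points of *Pttg1* lie highest.

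Other genes of mitosis were read from 5 lists, which were also chosen with earlier results of these data known. Of 124 genes 122 were measured, with 89 below 0 and 33 above, against 45.6% of all genes and 53.6% of the brighter ones below 0. Their median was -0.38. This was nearer to 0 than the median of the 47 genes, and the difference between the lists was not tested. At an unadjusted p under 0.05, 23 of the 122 were lower and 3 higher. The shares of all genes were 6.03% and 4.9%, and those of the brighter genes 10.1% and 7.58%. Of the 122, 54 were separate and lower against 12 separate and higher. Here the shares were 18.5% and 22.5% of all genes, and 25.5% and 19.8% of the brighter ones. Condensin and cohesin genes had a median of -0.60, with 17 of 18 below 0, against 45.6% of all genes and 53.6% of the brighter ones. *Cdca5*, sororin, which keeps sister chromatids joined, was at 5.70 and 2.78 in *Ddb1*-deficient cells, against 7.43 and 6.47 in control cells (-2.71 ± 1.11 SE, adjusted p = 0.508). Its *Ddb1*-deficient arrays were far apart, while those of *Pds5b*, a cohesin regulator, were close at 5.93 and 5.54 in *Ddb1*-deficient cells, against 7.08 and 6.88 in control cells (-1.25 ± 0.23 SE, adjusted p = 0.237). *Ncaph2*, a condensin subunit, was separate at -1.45.

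The 36 other centromere and kinetochore genes had a median of -0.43. Of these, 9 were lower and 2 higher at an unadjusted p under 0.05, against 6.03% and 4.9% of all genes. *Zwilch*, of the complex that brings the checkpoint and dynein to kinetochores, was at 5.13 and 5.0 in *Ddb1*-deficient cells, against 6.80 and 6.74 in control cells (-1.70 ± 0.18 SE, 3.26-fold lower, adjusted p = 0.157). *Cenpw*, a histone-fold protein of the inner kinetochore, was at 2.52 and 2.86 in *Ddb1*-deficient cells, against 4.35 and 4.43 in control cells (-1.70 ± 0.21 SE, adjusted p = 0.165). *Hjurp*, the chaperone that loads CENP-A, ran the other way at 5.24 and 3.51 in *Ddb1*-deficient cells, against 2.29 and 2.67 in control cells, with both *Ddb1*-deficient arrays higher (1.90 ± 0.65 SE, adjusted p = 0.443). Of 37 other spindle and cytokinesis genes measured, with a median of -0.31, *Cep55*, which recruits the machinery of abscission, was at 4.98 and 4.54 in *Ddb1*-deficient cells, against 7.20 and 6.67 in control cells (-2.18 ± 0.30 SE, 4.52-fold lower, adjusted p = 0.182). *Shcbp1*, which binds centralspindlin at the midbody, was at 4.42 and 4.39 in *Ddb1*-deficient cells, against 5.79 and 6.05 in control cells (-1.51 ± 0.19 SE, adjusted p = 0.171), and *Haus3* of the augmin complex was separate at -1.22.

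Other regulators of entry and exit had a median of -0.38 over 17 genes. Of these, 3 were lower and 0 higher at an unadjusted p under 0.05, against 6.03% and 4.9% of all genes. *Cks2*, a small subunit of cyclin-dependent kinases, was at 7.89 and 8.16 in *Ddb1*-deficient cells, against 9.37 and 9.26 in control cells (-1.29 ± 0.20 SE, adjusted p = 0.199). *Bora*, which helps Aurora A to activate PLK1, and *Plk4*, the kinase of centriole duplication, were separate at -1.46 and -1.20. The list of the anaphase-promoting complex holds its subunits and *Ube2s*, a ubiquitin-conjugating enzyme that works with it. This list had the median nearest to 0 of the 5, at -0.14. In it 8 of 14 genes were below 0, close to the share of the brighter genes (53.6%, and 45.6% of all genes). Among them *Cdc27* was at 7.31 and 7.94 in *Ddb1*-deficient cells, against 8.78 and 8.45 in control cells (-0.99 ± 0.30 SE, adjusted p = 0.404), while *Anapc4* and *Anapc15* were separate at -0.44 and -0.42.

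DNA replication genes, whose transcripts peak earlier in the cycle, were measured for 37 of 38. Their median was -0.44, with 30 of 37 below 0, against 45.6% of all genes and 53.6% of the brighter ones. At an unadjusted p under 0.05, 8 were lower and 0 higher, against 6.03% and 4.9% of all genes. A further count gave 14 separate and lower against 2 separate and higher. Here the shares were 18.5% and 22.5% of all genes, and 25.5% and 19.8% of the brighter ones. Single arrays moved the median of the replication genes. Without *Ddb1*-deficient array 2 it was -0.23, and between the arrays of male cells it was -0.13, against -0.57 between those of female cells. The median of the other mitosis genes was -0.23 without *Ddb1*-deficient array 2.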

How the data were processed

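Gene expression was measured in sorted LSK cells on 4 Affymetrix mouse arrays, 2 from *Ddb1*-deficient and 2 from control embryos, and samples were grouped by their labels. Per the labels, 20 ng of RNA was used for each sample, and by the methods it was amplified in 2 cycles, so that weak signals can vary between arrays. The authors normalized the arrays together by RMA and deposited the linear intensity of each of 45101 probe sets. The deposited log2 values, in a series matrix and beside the intensities, are the same values set relative to the control mean. They were used as an alternative. The other deposited table holds the authors' own p-values and fold changes and was not used. No column of sample values was left unmapped (0).

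The log2 of the linear intensity was taken with no pseudocount. The 64 control probe sets were left out, and of the other 45037 those with 1 gene name (37463) were kept. Names were updated from a RefSeq gene table, which matched 34158 probe sets and renamed 4650. Where a gene had several probe sets, the brightest on average was read, which gave 20656 genes. Array medians were 2.072 and 2.085 (*Ddb1*-deficient) and 2.026 and 2.046 (control), and the arrays of a group correlated across probe sets at 0.94 (*Ddb1*-deficient) and 0.97 (control, Pearson's r). Probe sets give no read depth, and the number of arrays limits the precision. Differences were fitted by limma 3.58.1 (lmFit, then eBayes) under R 4.3.3 (2 residual and 1.96 prior degrees of freedom), with Benjamini-Hochberg adjustment over all genes, in a fit tested on simulated data. Summaries and motif counts were made in Python 3.11.15 with pandas 2.3.3. Promoter windows came from RefSeq, which gave none here for *Aurkb*, *Ccna2*, *Cdc25c*, *Incenp*, *Kif20a*, *Smc4* and *Tpx2*.

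Array values are given in full for members whose groups were separate at an unadjusted p under 0.05 (of them the 12 largest and the 4 smallest differences), for the 3 most positive members and for *Cdk1*, *Ccnb1*, *Ccna2*, *Plk1*, *Aurka*, *Aurkb*, *Bub1*, *Bub1b*, *Bub3*, *Mad2l1*, *Top2a* and *Mki67*. In each role others were named by the size of their difference, and *Cdc25c*, *Melk*, *Nek2*, *Kif23*, *Birc5*, *Kif4*, *Ttk*, *Ckap2* and *Kif2c* were given array values after these were seen. From each list of other mitosis genes the 3 with the largest separate differences were named. The members and the lists were chosen with earlier results of these data known. *Ccna2*, *Ccnb1*, *Smc4* and *Mis12* were among the genes that the study picked out from these arrays, so their direction is not independent evidence. Other settings tried were the test that the methods name (two-tailed, equal variance), a trended and robust eBayes, a block for the replicate number, a threshold of 0.1 on the adjusted p, a filter that kept genes above the median probe set, the average of a gene's probe sets, the removal of probe sets ending in _x_at or _s_at, the series matrix values, median centring of the arrays, a further quantile normalization, and each array left out in turn. The comparison within the arrays of each sex was added after the data were seen.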

Additional observations from a re-analysis of the deposited data

Results flagged for a closer look

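The hybridization controls are a signal outside the genes compared. The 10 probe sets of bioB and bioC, control RNAs added in known amounts at hybridization, were all higher on the *Ddb1*-deficient arrays, with a median log2 difference of 0.58 and a range of 0.54 to 0.70. Their medians were 11.21 and 11.41 on the *Ddb1*-deficient arrays, against 10.69 and 10.66 on the control arrays. The 4 probe sets of cre, the only other added RNA compared, had a median difference of -0.01. They were far brighter, at medians of 14.31 and 14.27 on the *Ddb1*-deficient arrays, against 14.33 and 14.30 on the control arrays. The part of the bioB and bioC shift in the differences of the mitosis and spindle genes was not tested.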

How the results depend on the processing

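Of 540 values computed under the alternatives, 509 stayed on the same side of the threshold and within the limits set for counts and medians. The differences of 30 named members kept their sign in 381 of 389 values, and none passed the adjusted threshold. Many of these signs could not change. The methods' test, the other eBayes, the block, the filter on brighter genes and the series matrix values leave each difference as it was. Such unchanged differences are counted in the 509 too. By the methods' test 1 gene was called lower and 1 higher, no member among them, and 11 members were lower at an unadjusted p under 0.05, against 18 with limma. With the replicate number as a block that count was 16 and no call changed. Arrays of 1 number were of 1 sex in both groups, so the number also stands for sex and each group's spread lies between male and female cells. Deviations of same-numbered arrays correlated at -0.016 over all genes. With the mean of all probe sets 1 member was higher at an unadjusted p under 0.05 and 1 separate and higher, in both cases *Pttg1* (1.34). *Bub3* (0.02) and *Cdca8* (-0.20) changed sign. *Nusap1* (-1.15), *Bub1* (-0.67), *Top2a* (-0.75), *Spc25* (-0.99) and *Tpx2* (-0.51) shrank by over 1.5 times with that mean. The averages include probe sets near or below the median probe set. Their levels were 1.80 (*Top2a*), 1.40 and 1.25 (*Tpx2*), 2.11 (*Spc25*), 2.27 (*Bub1*) and 2.03 (*Bub3*), and their part in the smaller differences was not tested. Without _x_at and _s_at probe sets 46 members were measured, and *Cdca8* was at -0.45. Again 1 was higher at an unadjusted p under 0.05 and 1 separate and higher, in both cases *Pttg1* (2.42). Centring turned *Plk1* to -0.04. Quantile normalization again made 1 member separate and higher and gave the replication genes a median of -0.32. Only between the arrays of male cells, the other mitosis genes had a median of -0.25 and the replication genes of -0.13. Between those of female cells the members had -1.11 and the replication genes -0.57. The cause of these shifts was not tested.

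With each array left out, members lower at an unadjusted p under 0.05 numbered 12 to 24 and higher ones 0 to 1. Members separate and lower numbered 34 to 37, and higher 1 to 5, where a lone array separates more easily. Medians ranged from -0.97 to -0.69 (members), -0.48 to -0.23 (other mitosis genes) and -0.58 to -0.23 (replication genes). *Plk1* ranged from -0.06 to 0.06, *Aurka* from -0.49 to 1.52 and *Cdca8* from -0.13 to 0.46. A lone array was assumed to vary like the other group. Probe sets near the median of 2.083 give little signal over background, and 2 arrays a group limit every statement here.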
